A study of Homo sapiens with 24 samples.

Results

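The 10 genes described here encode fibrinogen (FGA, FGB and FGG), 5 clotting proteins (F2, F3, F5, F7 and F10) and 2 members of the anticoagulant protein C pathway (THBD and PROC). Their members are the array probes whose transcript accession belongs to 1 of these genes, which gave 13 probes. The genes were chosen by their log2 levels per line and treatment in these same arrays, above all because FGB ran against the other liver genes between the lines. The whole array held 58201 probes, of which 31104 were named through RefSeq and 10719 through LNCipedia, for 31204 named genes in all. Levels between the lines are therefore given as a description without a test, whereas the effects of the treatments were tested. The choice used levels per treatment too, so the p-values and the counts of members passing are not independent of it. Expression was measured in PLC/PRF/5 and SNU-449, 2 established human hepatocellular carcinoma lines, on 24 one-colour microarrays. Cells of each line were starved of serum overnight and then left untreated (control), or exposed for 16 h to TGFβ1 at 1 ng/mL, to galunisertib (LY2157299, an inhibitor of the TGFβ type I receptor kinase) at 10 µM, or to both agents. Each of the 8 groups held 3 independent cultures. Each hepatic phenotype is represented by 1 line, so a difference between the lines is a difference between these 2 lines only.

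Fibrinogen is made by hepatocytes as a hexamer of paired α, β and γ chains, which are encoded by FGA, FGB and FGG. Coagulation starts when tissue factor (F3) on a cell surface binds factor VII (F7), and this complex activates factor X (F10). Factor Xa with its cofactor factor V (F5) converts prothrombin (F2) to thrombin, which cleaves fibrinogen to fibrin. Thrombin bound to thrombomodulin (THBD) instead activates protein C (PROC), which inactivates factor Va. The liver is the main source of fibrinogen, prothrombin, factors V, VII and X and protein C, whereas tissue factor and thrombomodulin are membrane proteins of many cell types, thrombomodulin above all of endothelium.

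Levels are log2 values of a probe's signal over the 75th percentile of its array, so that 0 is a probe at that percentile. The percentile itself lay between 145 and 262 intensity units, and 41.6% to 49.6% of probes per array were well above background by the scanner software. Values below 5.70% of the percentile were set to that floor (log2 -4.13). A level is compared between samples for 1 probe, never between probes. Of 15 hepatocyte markers, 14 were well above background on all 12 PLC/PRF/5 arrays, ALB among them. In SNU-449, 8 were so on all 12 arrays and 6 on none. Of 10 endothelial markers, 0 were so on all PLC/PRF/5 arrays and 1 (EMCN) on all SNU-449 arrays. The summed signal of the hepatocyte list ran from 1029 to 1409 times the 75th percentile in PLC/PRF/5 and from 3.08 to 6.53 times in SNU-449. The summed endothelial list ran from 0.137 to 0.372 times in PLC/PRF/5 and from 0.372 to 1.11 times in SNU-449, with PECAM1 well above background on 0 arrays. TGFβ1 raised 5 of 7 tested pathway readout genes in PLC/PRF/5 and 8 of 9 in SNU-449, and galunisertib added to TGFβ1 lowered 5 and 8 of them. Galunisertib alone raised 2 and lowered 2 in PLC/PRF/5, and lowered 6 in SNU-449. With galunisertib present, TGFβ1 still raised 6 of 9 in SNU-449 (median of the list 1.38) and 0 of 7 in PLC/PRF/5. On every slide the arrays without TGFβ1 lay in row 1 and those with it in row 2, so that array row and TGFβ1 cannot be told apart. The arrays without galunisertib lay in column 1 for PLC/PRF/5 and column 3 for SNU-449 and those with it in columns 2 and 4, so that array column and galunisertib, and column and line, cannot be told apart either. In bulk RNA, fewer cells making a transcript and less transcript per cell cannot be told apart.

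Under all 4 treatments FGB and THBD stood higher in SNU-449, and the other 8 genes stood higher in PLC/PRF/5. In control cells FGB measured 1.70, 1.75 and 1.89 on the 3 PLC/PRF/5 arrays and 3.98, 4.01 and 4.23 on the SNU-449 arrays. The groups did not overlap and the means differed by 4.90-fold. The γ chain ran the other way. FGG measured 6.04, 6.08 and 5.95 in PLC/PRF/5 controls against 3.64, 4.21 and 4.22 in SNU-449 controls, 4.01-fold higher in PLC/PRF/5. FGA measured 4.17, 4.23 and 4.32 in PLC/PRF/5 controls, but in SNU-449 only 1 of 12 arrays, control replicate 3 at -3.55, was well above background on its brightest probe, and 0 arrays on its other probes. The 3 SNU-449 galunisertib arrays, at -3.56, -3.29 and -3.50, and combined replicate 3, at -3.40, lay above the floor too but were not well above background. SNU-449 cells thus carried clear signal for the β and γ chains of fibrinogen on all 12 arrays and signal at or near background for the α chain.

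The remaining liver genes were bounded only from above in SNU-449 controls, where F2, F5, F7, F10 and PROC were not well above background. Against that background PLC/PRF/5 controls were at least 926-fold higher for F2, 168-fold for PROC, 37.8-fold for F10, 24.8-fold for F7 and 4.90-fold for F5. F3 was 2.12-fold higher in PLC/PRF/5 controls. THBD measured -0.33, -0.23 and 0.02 in PLC/PRF/5 controls and 1.92, 1.86 and 1.89 in SNU-449 controls, 4.20-fold higher in SNU-449. With control cells compared, 36.1% of the 17853 genes tested differed by more than 2-fold between the lines, as did 10 of these 10 genes, and 17.9% were more than 2-fold higher in PLC/PRF/5, as were 8 of the 10. Nothing is read from these counts, since the levels chose the genes.

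**Figure D1:**
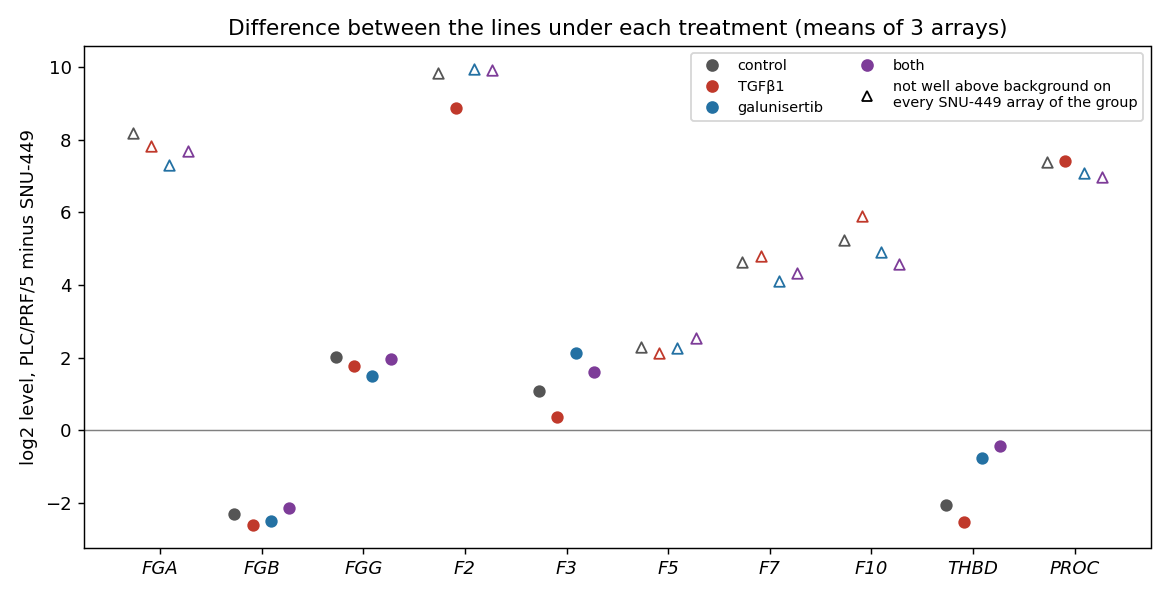
Difference in mean log2 level between PLC/PRF/5 and SNU-449 (vertical axis, log2) for each gene under each treatment, means of 3 arrays per line. Open triangles mark genes not well above background on every SNU-449 array of that group, which give only a bound. FGB and THBD lie below 0 under every treatment, and the THBD difference shrank from -2.07 in control cells to -0.43 with both agents.

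**Figure D2:**
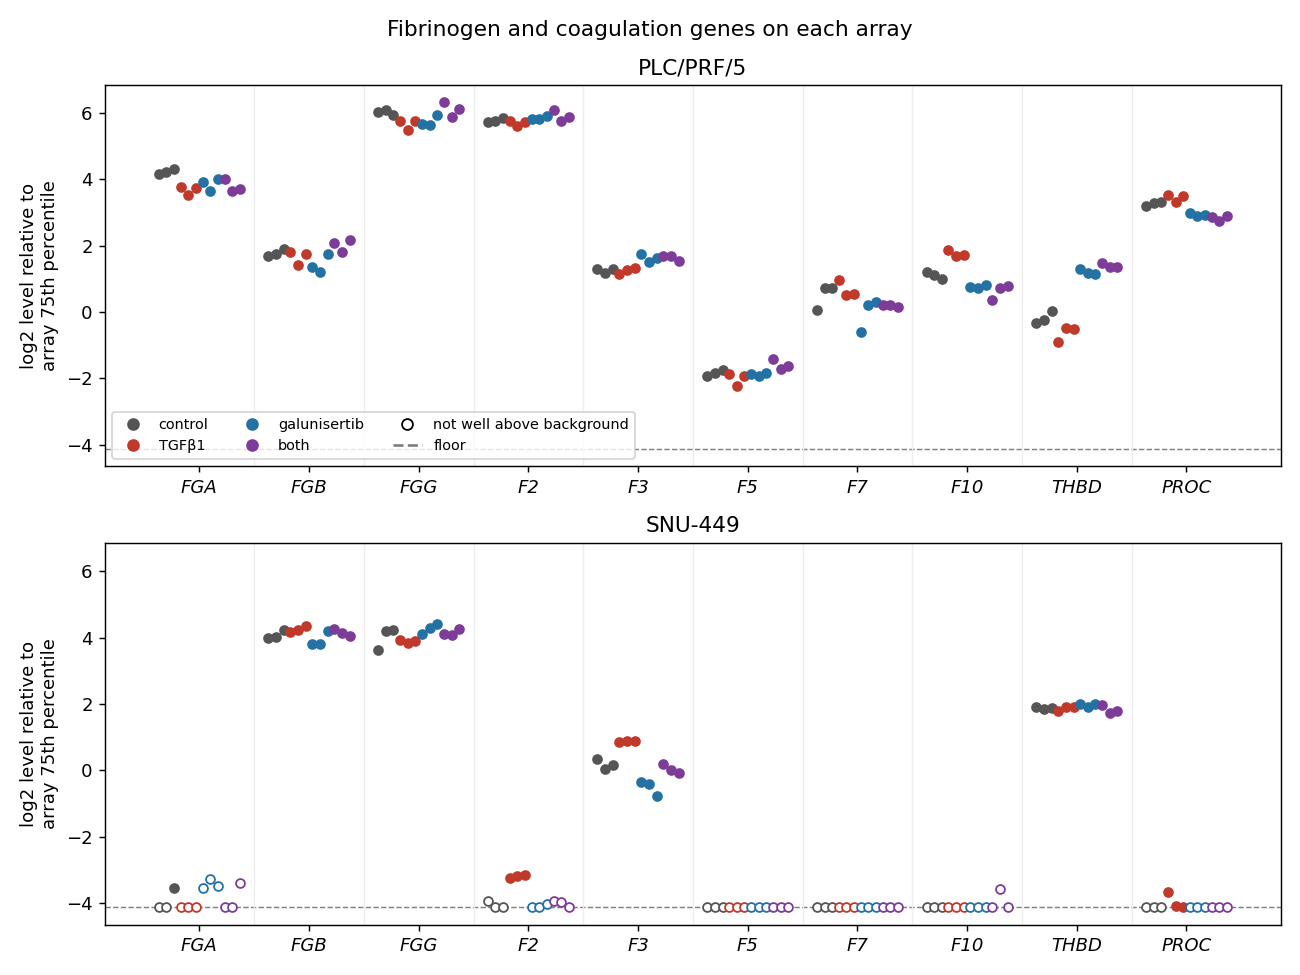
Log2 level relative to the array's 75th percentile (vertical axis) of the 10 genes on each of the 12 arrays per line, coloured by treatment. Open points are not well above background and the dashed line is the floor at -4.13. In SNU-449, FGB, FGG, F3 and THBD are measured on all 12 arrays, and F5 and F7 are at the floor on all of them.

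The 3 fibrinogen genes lie side by side on chromosome 4, with 0 other protein-coding genes between FGB and FGA or between FGA and FGG in RefSeq. Their promoters are shown because these neighbours differed in direction between the lines. The 250 bases before each gene's start were read from RefSeq (GRCh38.p14), which held a promoter for 9 of the 10 genes and none for THBD. They are written 5′ to 3′ on the gene's strand, with matches in capitals to TTNNGNAA (a pattern of C/EBP factors) and to CTGGGAA (a pattern of interleukin-6 response elements), on either strand. No 2 matches overlap in these windows.
FGA, chr4:154590743-154590992, minus strand: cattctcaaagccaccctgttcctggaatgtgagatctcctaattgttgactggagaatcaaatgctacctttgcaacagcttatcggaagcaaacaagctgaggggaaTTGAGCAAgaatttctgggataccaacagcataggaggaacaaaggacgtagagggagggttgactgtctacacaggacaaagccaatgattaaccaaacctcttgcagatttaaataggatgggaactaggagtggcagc
FGB, chr4:154562730-154562979, plus strand: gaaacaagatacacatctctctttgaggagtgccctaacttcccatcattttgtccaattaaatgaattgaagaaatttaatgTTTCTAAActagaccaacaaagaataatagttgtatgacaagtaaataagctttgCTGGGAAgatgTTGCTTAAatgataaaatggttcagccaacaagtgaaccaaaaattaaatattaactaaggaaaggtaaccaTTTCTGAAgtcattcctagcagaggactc
FGG, chr4:154612657-154612906, minus strand: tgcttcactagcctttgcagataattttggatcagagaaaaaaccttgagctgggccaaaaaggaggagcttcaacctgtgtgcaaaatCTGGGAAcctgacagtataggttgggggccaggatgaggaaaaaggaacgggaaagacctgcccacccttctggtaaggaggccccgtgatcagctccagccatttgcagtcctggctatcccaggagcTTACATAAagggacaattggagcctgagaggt
TTNNGNAA matched once in FGA (141 to 134 bases before the start), 3 times in FGB and once in FGG (32 to 25 bases). Of 27305 promoters of this length, 33.63% held it. CTGGGAA matched in FGB (112 to 106 bases before the start) and FGG (161 to 155 bases), but not in FGA, and 9.3% of promoters held it. The FGA window holds ctgggat a few bases after its TTNNGNAA match, which has all letters of CTGGGAA but the last. Shorter forms of the pattern were not counted. Of the other members with a promoter, F10 held CTGGGAA and PROC held TTNNGNAA at the second of its listed starts. FGB has a second listed start too, and the window shown is that of its first. These are matches of letters, and whether a factor was bound was not measured.

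The largest changes were those of THBD and F10 in PLC/PRF/5 and of F2 and F3 in SNU-449. There F2 lay at or next to the floor in every group but TGFβ1, and its change is given as a description. A gene passed at an adjusted p below 0.05 from limma, with the Benjamini-Hochberg adjustment over all genes tested. In PLC/PRF/5 all 10 genes were well above background on all 12 arrays, and 16663 genes were tested. After TGFβ1, 3 of the 10 passed, against 13.5% of all genes. Of the 3, 1 was higher (F10) and 2 were lower (FGA and THBD), where 6.25% and 7.23% of all genes were. With galunisertib alone 3 of 10 passed against 5.43%, of which THBD (a rise already known when the genes were proposed) and F3 were higher and PROC lower, where 3.67% and 1.76% of all genes were. With galunisertib added to TGFβ1, 6 of 10 passed against 39.1%. Of these, 4 were higher (THBD, FGG, F5 and F3) and 2 lower (F10 and PROC), against 25.8% and 13.3% of all genes. With TGFβ1 added to galunisertib 1 of 10 passed (FGB, higher), against 8.54% of genes and 3.58% in that direction. The median changes of the 10 genes were -0.10, -0.30, 0.29 and 0.13 in these comparisons, beside -0.04, 0.05, 0.06 and 0.02 over all genes.

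In SNU-449, 6 of the 10 genes entered the tests: FGB, FGG, F3 and THBD on every array, and F2 and PROC only through the TGFβ1 arrays, the group in which both were highest. FGA, F5, F7 and F10 were not tested there. The filter itself favoured a difference for F2 and PROC, so they are described without a test and only the 4 genes measured on every array are counted. After TGFβ1, F3 passed (higher), when 10.5% of the 16072 genes tested did and 5.74% were higher. With galunisertib alone F3 passed (lower) against 7.47% of genes and 2.09% lower. With galunisertib added to TGFβ1, F3 passed (lower) against 17.1% of genes and 7.39% lower. With TGFβ1 added to galunisertib 0 passed in limma against 1.9% of genes, and 1 at an unadjusted p below 0.05 (F3, against 16.9% of genes). A t-test gene by gene, without the random variance model that the study's methods name, passed 0 after adjustment. It passed 0 of all genes in that comparison too. Under the study's own limits, a fold above 2 with an unadjusted p below 0.001, THBD alone passed with galunisertib in PLC/PRF/5 (0.342% of all genes did), and THBD and F10 with galunisertib added to TGFβ1 (3.09%). Both comparisons with controls share the control arrays, and both with the combined group share its arrays, so their values are not independent.

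**Figure D3:**
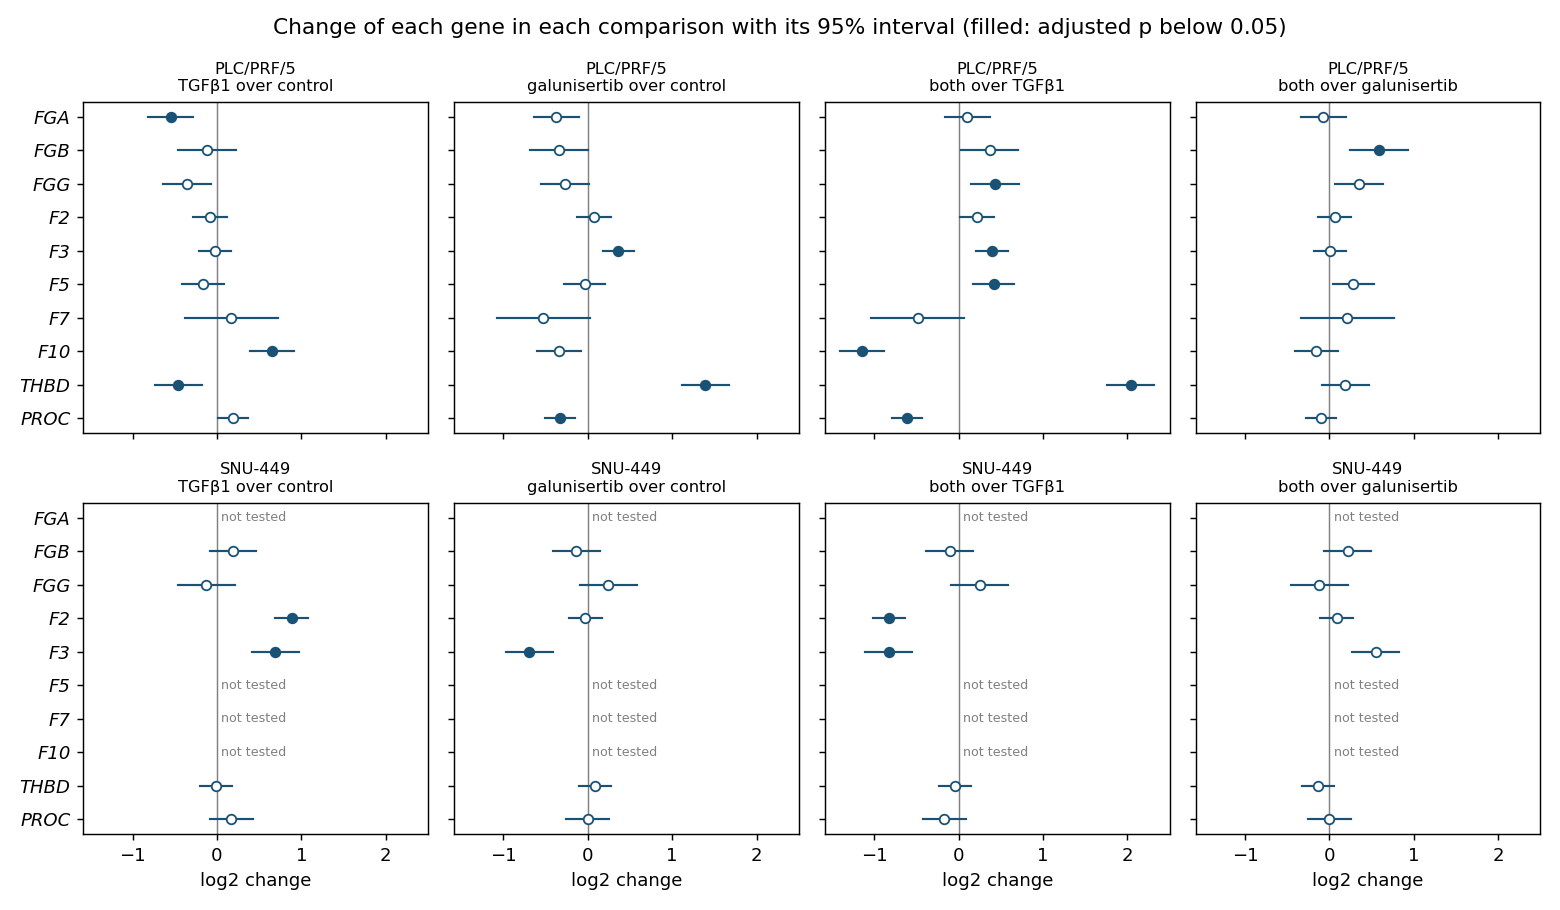
Log2 change (horizontal axis) of each gene in the 4 comparisons of each line, with the 95% interval from limma. Filled points have an adjusted p below 0.05. F2 and PROC in SNU-449 entered only through their TGFβ1 arrays, so no test is read from their points there. THBD and F10 in PLC/PRF/5 and F2 and F3 in SNU-449 lie farthest from 0, and 4 genes were not tested in SNU-449.

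THBD, the thrombin receptor that turns thrombin towards protein C, showed the largest changes of the 10 genes. In PLC/PRF/5 it measured -0.33, -0.23 and 0.02 in controls, -0.91, -0.48 and -0.52 with TGFβ1, 1.31, 1.17 and 1.16 with galunisertib, and 1.48, 1.37 and 1.35 with both. No 2 of these 4 groups overlapped, and the order from low to high was TGFβ1, control, galunisertib, both. Galunisertib alone raised THBD 2.62-fold (log2 change 1.39 ± 0.13 SE), in 3 of 3 slides. That rise was known when the genes were proposed and is given as a description. The comparison of both agents with TGFβ1 uses neither the control arrays nor those with galunisertib alone. The choice of genes used the levels of its arrays too, so its p-value is not independent of that choice. In that comparison galunisertib raised THBD 4.11-fold (2.04 ± 0.13 SE, adjusted p = 2.24e-06). This second rise kept its call under every alternative run. Both neighbours in the order were weaker. TGFβ1 alone lowered THBD 1.37-fold (-0.46 ± 0.13 SE, adjusted p = 0.0359), but with the replicate number as a block, which pairs the samples here, adjusted p was 0.0525. The call was also lost without control replicate 2 or 3 (-0.48 and -0.36) or TGFβ1 replicate 1 or 3 (-0.32 and -0.51). Both agents exceeded galunisertib alone by 0.19, with an interval from -0.09 to 0.47 and an adjusted p of 0.334.

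In SNU-449, THBD kept within a narrow band. It measured 1.92, 1.86 and 1.89 in controls, 1.79, 1.92 and 1.92 with TGFβ1, 2.00, 1.90 and 2.01 with galunisertib, and 1.97, 1.74 and 1.80 with both. All 4 groups overlapped. The interval of its change was -0.20 to 0.18 for TGFβ1, -0.11 to 0.27 for galunisertib and -0.23 to 0.15 for galunisertib added to TGFβ1, and none passed. The effect of galunisertib on THBD in SNU-449 minus that in PLC/PRF/5 was -1.31 (± 0.15 SE), a description too, since it holds the same known rise. Even so, THBD in PLC/PRF/5 cells with both agents stayed below SNU-449 with both agents, by 1.35-fold on the means.

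PROC, the zymogen of the protease that thrombomodulin helps to activate, moved in the opposite direction to THBD in PLC/PRF/5. Its brighter probe measured 3.20, 3.28 and 3.32 in controls, 3.54, 3.32 and 3.50 with TGFβ1, 2.98, 2.89 and 2.94 with galunisertib, and 2.88, 2.73 and 2.91 with both. All arrays with galunisertib lay below all arrays without it. When galunisertib was added to TGFβ1, PROC fell by 34.6% (-0.61 ± 0.08 SE, adjusted p = 0.000268), and the second PROC probe, not tested itself, gave -0.85. The call was lost with arrays scaled on their median (-0.43, adjusted p = 0.118) and without scaling (-0.61, adjusted p = 0.151). Galunisertib alone gave -0.33 (adjusted p = 0.0441), a call that was lost whichever of the 6 arrays was left out, with values from -0.36 to -0.30 and adjusted p up to 0.133. After TGFβ1 alone the change was 0.19, with an adjusted p of 0.163. In SNU-449 the second PROC probe was at the floor and not well above background on any array. The brighter probe was well above background only on the 3 TGFβ1 arrays, at -3.66, -4.10 and -4.13, beside the floor on the other 9. That difference of 0.17 is set by the floor: with a lower floor it was 0.82. With normexp background correction, whose offset of 50 intensity units shrinks changes of dim probes, it was 0.01.

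F10, the protease at which both routes to thrombin meet, rose with TGFβ1 and fell with galunisertib in PLC/PRF/5. It measured 1.22, 1.12 and 0.98 in controls, 1.88, 1.68 and 1.72 with TGFβ1, 0.75, 0.73 and 0.83 with galunisertib, and 0.35, 0.72 and 0.78 with both. The TGFβ1 arrays stood above all the others, and only the galunisertib and combined groups overlapped. TGFβ1 raised F10 1.57-fold (0.65 ± 0.12 SE, adjusted p = 0.00478), in 3 of 3 slides, a call lost only when arrays were scaled on their median (adjusted p = 0.0515). With TGFβ1 present, galunisertib lowered it 2.21-fold (-1.14 ± 0.12 SE, adjusted p = 5.41e-05). This fall held under every alternative run. Galunisertib alone gave -0.34, with an adjusted p of 0.113 although the groups did not overlap, and TGFβ1 added to galunisertib gave -0.15 (interval -0.41 to 0.10). In SNU-449, F10 was well above background on 0 of 12 arrays.

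F3, tissue factor, rose with TGFβ1 in SNU-449 and fell with galunisertib there. In SNU-449 it measured 0.35, 0.03 and 0.16 in controls, 0.84, 0.88 and 0.89 with TGFβ1, -0.36, -0.42 and -0.76 with galunisertib, and 0.19, 0.00 and -0.07 with both. The TGFβ1 arrays were the highest and the galunisertib arrays the lowest, and the control and combined groups overlapped between them. TGFβ1 raised F3 1.61-fold (0.69 ± 0.13 SE, adjusted p = 0.00596), and galunisertib alone lowered it 1.61-fold (-0.69 ± 0.13 SE, adjusted p = 0.0109). Both calls were lost with arrays scaled on their median (adjusted p = 0.0555 and 0.214). The galunisertib call was lost with a t-test gene by gene too (adjusted p = 0.157). With TGFβ1 present, galunisertib lowered it 1.78-fold (-0.83 ± 0.13 SE, adjusted p = 0.0013). With galunisertib present, TGFβ1 gave a change of 0.55 (interval 0.27 to 0.83, adjusted p = 0.0601).

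In PLC/PRF/5, F3 took the other direction with galunisertib. The arrays measured 1.30, 1.19 and 1.30 in controls, 1.14, 1.26 and 1.32 with TGFβ1, 1.74, 1.52 and 1.62 with galunisertib, and 1.69, 1.69 and 1.54 with both. The 6 arrays with galunisertib lay above the 6 without it. On top of TGFβ1, galunisertib raised F3 1.32-fold (0.40 ± 0.08 SE, adjusted p = 0.00397), and TGFβ1 alone gave -0.03 (interval -0.21 to 0.16). Galunisertib alone gave 0.36 (adjusted p = 0.0366). That call was lost without any 1 control array or without galunisertib replicate 1 or 3, with values from 0.31 to 0.38 and adjusted p up to 0.131. The difference between the lines was itself tested. The effect of galunisertib on F3 in SNU-449 minus that in PLC/PRF/5 was -1.05 (± 0.15 SE, adjusted p = 0.000223), a call lost with arrays scaled on their median (adjusted p = 0.0622). In that comparison 3 of 10 members passed (F3, THBD and FGA) against 5.89% of 17853 genes. For TGFβ1 the same difference was 0.71 (± 0.15 SE, adjusted p = 0.00386). The call was lost with arrays scaled on their median (adjusted p = 0.206) and without scaling (adjusted p = 0.435). In the main fit of the TGFβ1 difference 3 of 10 members passed (F3, F2 and F10) against 8.63% of genes. FGA, F2 and F10 were at or near the floor in SNU-449, so nothing is read from their part in these counts.

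**Figure D4:**
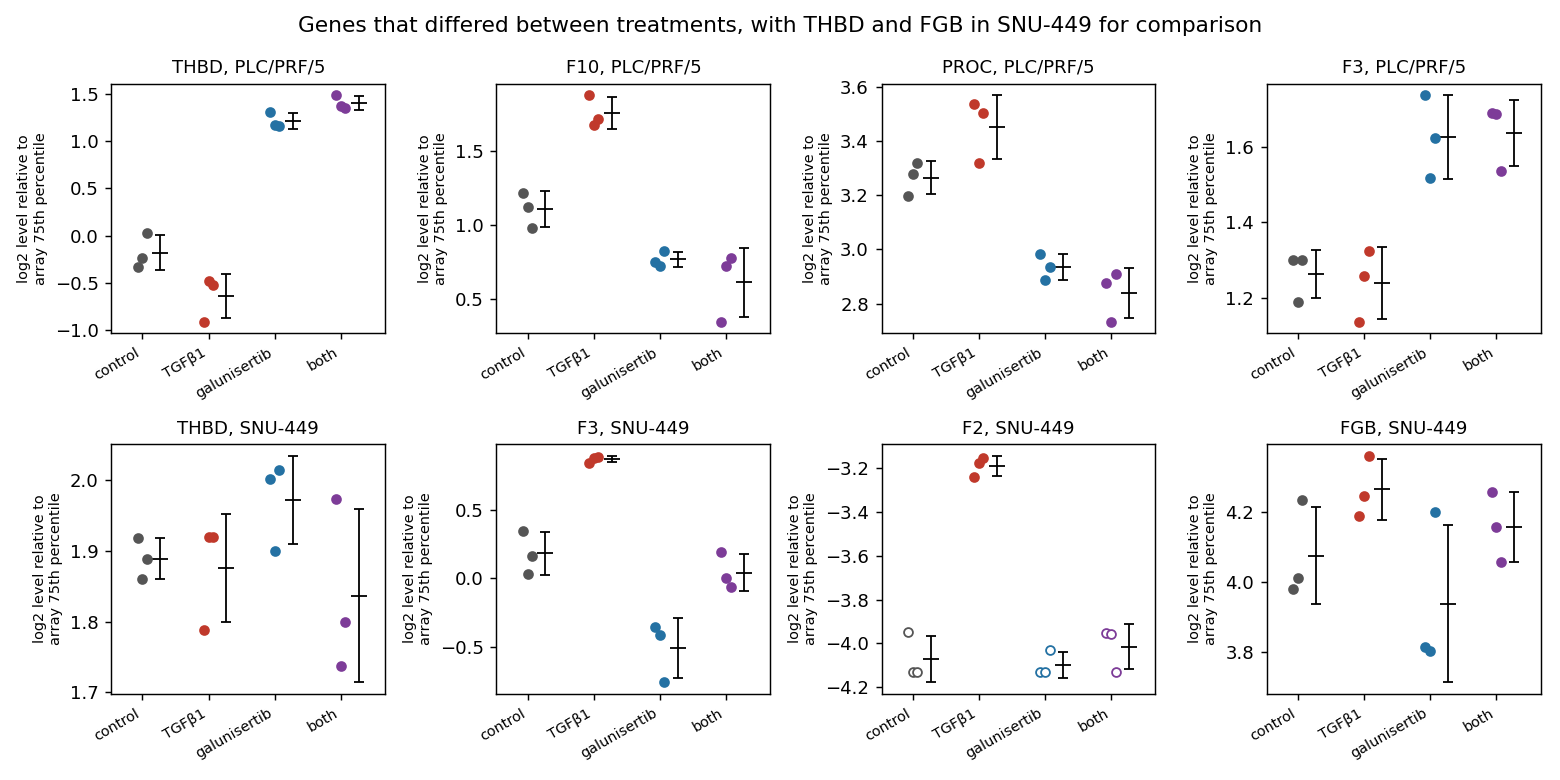
Log2 level relative to the array's 75th percentile (vertical axes, with a range of their own in each panel) on each array of the 4 treatments, for THBD, F10, PROC and F3 in PLC/PRF/5 and THBD, F3, F2 and FGB in SNU-449, with the mean and SD of 3 arrays beside the points. Open points are not well above background. THBD, PROC, F10 and F3 separate the arrays with galunisertib from those without it in PLC/PRF/5, while THBD stays between 1.74 and 2.01 in SNU-449.

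F7, which pairs with tissue factor, varied too much between cultures to be called. In PLC/PRF/5 it measured 0.06, 0.71 and 0.74 in controls, 0.96, 0.52 and 0.54 with TGFβ1, -0.61, 0.21 and 0.32 with galunisertib, and 0.20, 0.21 and 0.15 with both. Control replicate 1 and galunisertib replicate 1 stood low in their groups. Galunisertib gave -0.53 (interval -1.08 to 0.02, adjusted p = 0.235) and galunisertib added to TGFβ1 -0.48 (interval -1.03 to 0.07, adjusted p = 0.154). F7 and F10 are neighbours on chromosome 13 with 0 protein-coding genes between them.

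F5, the cofactor of factor Xa, was measured in PLC/PRF/5 alone. It measured -1.94, -1.84 and -1.74 in controls, -1.86, -2.22 and -1.93 with TGFβ1, -1.86, -1.93 and -1.83 with galunisertib, and -1.42, -1.73 and -1.62 with both. Galunisertib added to TGFβ1 raised it 1.33-fold (0.41 ± 0.11 SE, adjusted p = 0.0135). Without TGFβ1 replicate 2 or combined replicate 1 the change was 0.31 and 0.33 and the adjusted p 0.0533 and 0.0521. The change was 0.24 with the percentile set on bright probes alone (those above background on all 24 arrays). With normexp background correction, whose offset of 50 intensity units shrinks changes of dim probes, it was 0.22. F5 passed with neither. Its other 3 comparisons did not pass.

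F2, prothrombin, was steady in PLC/PRF/5, where its 12 arrays lay between 5.61 and 6.09 and 0 of 4 comparisons passed. The probe is printed in 10 spots per array, whose SD on the log2 scale within an array was 0.0529 at the median, so spot error was small there. In SNU-449 it was dim. TGFβ1 arrays measured -3.24, -3.17 and -3.15 and were well above background on 3 of 3, while the other 9 arrays lay between the floor and -3.95 and were not. The TGFβ1 arrays were at least 1.85-fold above controls and at least 1.71-fold above the combined group. No test is given, since F2 entered the fit through those same arrays. Both values rest on signal just over the floor. With normexp background correction, whose offset of 50 intensity units by itself shrinks changes of dim probes, the log2 changes were 0.15 and -0.08. With the floor doubled, an alternative chosen after seeing the data, the floor lay above F2 on all 12 arrays. Both changes were then 0 by construction.

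The fibrinogen chains moved little, and only FGA passed after TGFβ1 in PLC/PRF/5. FGA measured 3.77, 3.54 and 3.75 with TGFβ1, 3.92, 3.65 and 4.01 with galunisertib, and 4.0, 3.66 and 3.71 with both, all below the 3 controls at 4.17 to 4.32. TGFβ1 lowered it 1.46-fold (-0.55 ± 0.12 SE, adjusted p = 0.0132). Without TGFβ1 replicate 2 the change was -0.48 with an adjusted p of 0.054, and with arrays scaled on their median, without scaling or with all 24 arrays in 1 fit the call was lost too. The 2 other FGA probes, not tested themselves, gave -0.46 and -0.41. Galunisertib alone gave -0.38 (adjusted p = 0.097) on the brightest probe and -0.65 and -0.52 on the others. It passed with the mean of all FGA probes (-0.52, adjusted p = 0.019), with quantile normalization (-0.46, adjusted p = 0.0312) and with the percentile of bright probes (-0.46, adjusted p = 0.0327). The probes disagreed when galunisertib was added to TGFβ1, at 0.10, -0.01 and 0.40. The probe at 0.40 is named by another FGA transcript than the other 2, so probe and transcript cannot be told apart here. Each FGA probe was printed in 1 spot per array, and those at 0.10 and 0.40 lay near the array's edge. Spot position and probe cannot be told apart either.

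FGB in PLC/PRF/5 measured 1.81, 1.41 and 1.75 with TGFβ1, 1.37, 1.21 and 1.74 with galunisertib, and 2.10, 1.82 and 2.17 with both. The combined arrays stood above the galunisertib arrays (0.59 ± 0.15 SE, adjusted p = 0.044). That call was lost without galunisertib replicate 1 or 2 (0.55 and 0.47) or combined replicate 1 or 3 (0.55 and 0.52), with adjusted p from 0.1 to 0.127. FGG measured 5.75, 5.49 and 5.77 with TGFβ1, 5.68, 5.65 and 5.94 with galunisertib, and 6.33, 5.87 and 6.12 with both. Galunisertib added to TGFβ1 raised it 1.35-fold (0.43 ± 0.13 SE, adjusted p = 0.0211). Without TGFβ1 replicate 2 or combined replicate 1 or 3 the change was 0.34, 0.32 and 0.43 and did not pass. With quantile normalization it was 0.16 (adjusted p = 0.279), and with the percentile of bright probes 0.26 (adjusted p = 0.101). In the same comparison FGB gave 0.37 with an adjusted p of 0.0833. TGFβ1 alone gave -0.36 for FGG (adjusted p = 0.0977) and -0.12 for FGB. Over the 12 PLC/PRF/5 arrays FGB and FGG correlated at r = 0.80, and FGA with FGB at r = 0.29 and with FGG at r = 0.58.

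In SNU-449 neither measured chain passed in any of the 4 comparisons. FGB lay between 3.80 and 4.36 over the 12 arrays and FGG between 3.64 and 4.41. The intervals of change were -0.09 to 0.47 for FGB and -0.47 to 0.21 for FGG after TGFβ1, and -0.41 to 0.14 and -0.09 to 0.58 after galunisertib. FGB and FGG correlated at r = -0.16 over these 12 arrays. The FGB difference between the lines was 4.90-fold in controls, 6.09-fold with TGFβ1, 5.65-fold with galunisertib and 4.38-fold with both. Its interactions did not pass (adjusted p = 0.657 for galunisertib and 0.423 for TGFβ1).

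**Figure D5:**
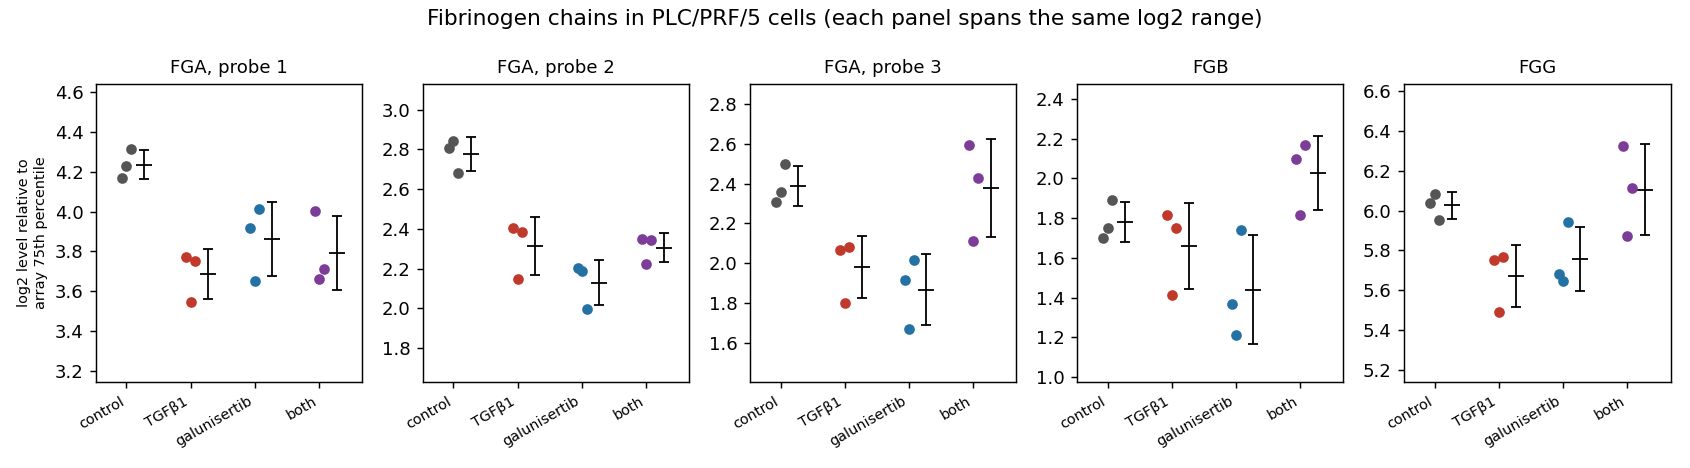
Log2 level relative to the array's 75th percentile (vertical axes, each spanning the same range) of the 3 FGA probes, ordered by brightness, and of FGB and FGG on the 12 PLC/PRF/5 arrays, with the mean and SD of 3 arrays beside the points. All 3 FGA probes were lower with TGFβ1 than in controls on every array, and they disagree on the combined group.

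Partners of these proteins were followed in a list of 33 other coagulation genes, of which 24 were tested in PLC/PRF/5 and 16 in SNU-449. After TGFβ1, 4 passed in PLC/PRF/5 (1 up, 3 down), where 13.5% of all genes did, and 5 in SNU-449 (2 up, 3 down), where 10.5% did. With galunisertib alone 5 passed in PLC/PRF/5 (2 up, 3 down, against 5.43% of genes) and 3 in SNU-449 (3 up, against 7.47%). With galunisertib added to TGFβ1, 12 passed in PLC/PRF/5 (8 up, 4 down, against 39.1%) and 5 in SNU-449 (3 up, 2 down, against 17.1%). The medians of the list were -0.03, -0.14 and -0.02 in these comparisons of PLC/PRF/5 and -0.01, 0.04 and -0.04 in SNU-449.

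TFPI, which inhibits factor Xa and the tissue factor complex, changed in the same directions as THBD in PLC/PRF/5. It fell by 0.78 with TGFβ1 (adjusted p = 0.000752), and its change was 0.62 with galunisertib (adjusted p = 0.00806) and 1.87 with galunisertib added to TGFβ1 (adjusted p = 1.05e-06). In SNU-449 TFPI fell by 0.68 with TGFβ1 and rose by 0.80 when galunisertib was added (adjusted p = 0.0408 and 0.0137). PROCR, the receptor that presents protein C to thrombomodulin, rose by 0.71 with TGFβ1 in PLC/PRF/5 (adjusted p = 0.0198) and fell by 0.43 in SNU-449 (adjusted p = 0.00816). That difference between the lines passed at -1.15 (adjusted p = 0.000551). PROS1, the cofactor of activated protein C, passed in 0 of the 8 comparisons, with changes from -0.07 to 0.28. The thrombin receptor F2R lay between -0.93 and -0.46 on the SNU-449 TGFβ1 arrays, while of the combined arrays 1 of 3 was well above background, at -2.21. F2RL1, a related protease-activated receptor, rose with galunisertib by 0.93 in PLC/PRF/5 and by 1.04 in SNU-449. The liver genes SERPIND1 (heparin cofactor II) and KNG1 (kininogen) fell with galunisertib in PLC/PRF/5, by 1.04 and 1.16. SERPINC1 (antithrombin), F13A1 and F13B (factor XIII) were not well above background on any array.

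Known regulators of fibrinogen transcription, among them C/EBP factors and the interleukin-6 family route, formed a list of 14 genes, of which 11 were tested in each line. After TGFβ1, 1 passed in PLC/PRF/5 (down) and 4 in SNU-449 (1 up, 3 down), where 13.5% and 10.5% of all genes did. With galunisertib alone 3 passed in PLC/PRF/5 (3 up, against 5.43% of genes) and 6 in SNU-449 (5 up, 1 down, against 7.47%). With galunisertib added to TGFβ1, 8 passed in PLC/PRF/5 (6 up, 2 down, against 39.1%) and 5 in SNU-449 (4 up, 1 down, against 17.1%). The list medians were -0.14, 0.05 and 0.31 in PLC/PRF/5 and -0.13, 0.44 and 0.23 in SNU-449. CEBPB rose with galunisertib in SNU-449 by 0.77 (adjusted p = 0.000856), where FGB and FGG did not pass. In PLC/PRF/5, galunisertib added to TGFβ1 raised CEBPB by 0.51 and SOCS3, the feedback inhibitor of interleukin-6 signalling, by 1.01, and CEBPA fell by 0.82. Whether these genes bear on the fibrinogen levels was not tested.

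Over the 12 arrays of PLC/PRF/5 the genes whose pattern was most like that of THBD, of 14843 compared by Pearson r, were SOD2, LHX2, EGR4, RGS2 and MIR4435-2HG (r = 0.987 to 0.991). Those most like F10 were LINC02593, C2CD4C, ULK1, ACSF2 and STK17A (r = 0.97 to 0.982), and those most like PROC were C3P1, OLMALINC, ONECUT1 and ESPN (r = 0.972 to 0.978). FGG was closest to AFP, GAS2, TMT1A, A2M and DDC (r = 0.907 to 0.945), F3 to ZNF799, CXCR4, LTO1, CXCL2 and LRG1 (r = 0.955 to 0.963), and F5 to BCKDHB, MLF1, DDC, VAMP4 and AGMAT (r = 0.908 to 0.945). FGA was closest to VIL1, PRODH2, ZAN, FRAT2 and DEPP1 (r = 0.862 to 0.928) and FGB to NORAD, ATP8B1, FZD5, SLCO2B1 and SLC38A11 (r = 0.877 to 0.943). Among the members, THBD correlated at r = 0.94 with F3, -0.92 with F10 and -0.95 with PROC. In SNU-449, where 13937 genes were compared, F3 was closest to FRMD6, IFIH1, ADGRG1, TNFRSF12A and HIVEP3 (r = 0.975 to 0.983). The 12 arrays share 4 treatments and 3 slides, so these values describe the same 4 group means and are given without a test.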

How the data were processed

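RNA of 24 cultures was hybridised to one-colour Agilent arrays. Per the labels, scans were read with Agilent Feature Extraction 10.7.3.1. The deposited files of each array held intensity (the background-subtracted processed signal and the median spot and background signals). A table deposited by the authors held log2 values for 30910 probes, centred per probe on its median, and all 13 member probes were in it. Groups came from the sample titles.

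Spots flagged as outliers (111 to 216 per array) were left out and 0 spots were saturated. Processed signals were divided by each array's 75th percentile, set to a floor of 5.70% (the median over arrays of the weakest spot well above background) and taken to log2. Each gene was represented by its brightest probe among those that were above background in all arrays of 1 or more groups. Limma 3.58.1 in R 4.3.3 was fitted over the 12 arrays of a line, and over all 24 for differences between lines. The number of arrays limits the precision, and p-values cover the spread between these cultures. Where one group is below background, "at least" folds set the brighter group's mean against the mean of, per array, the higher of the weakest signal well above background and the probe's own.

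All 10 members were reported in every comparison. Of the 2 gene lists (33 coagulation genes, 14 regulators), genes past the threshold without overlap were named, up to 6 per list and comparison, along with the partners TFPI, PROCR, PROS1, F2R, SERPINC1, F13A1 and F13B. Shorter accounts of a list give examples from these. Some items that these rules name are not reported here. The members and lists were chosen with earlier results of these data known. The replicate number is the slide, and the check of pairing gave correlations of deviations above 0.1 for every pair after TGFβ1 in PLC/PRF/5 (0.17 to 0.305), and in SNU-449 after TGFβ1 (0.128 to 0.225) and with galunisertib added to TGFβ1 (0.101 to 0.267), but not in the other comparisons. The files held no mean spot signal, so the normexp alternative used the median spot signal. It added an offset of 50 intensity units to each spot, which shrinks the changes of dim probes. The fits were tested on simulated data. Alternatives were the background correction, scaling, floor, filter, probe summary, block, test and samples.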

Additional observations from a re-analysis of the deposited data

Results flagged for a closer look

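The effect of a treatment in SNU-449 minus that in PLC/PRF/5 (log2, limma's interaction term over 24 arrays) passed for 3 of the 10 genes with galunisertib, against 5.89% of all genes, and for 3 with TGFβ1, against 8.63%. THBD and F3 were well above background on every array of these comparisons. F3 differed by -1.05 for galunisertib and by 0.71 for TGFβ1. Both F3 calls were lost with arrays scaled on their median, and that for TGFβ1 without scaling too. THBD differed by -1.31 for galunisertib, a value that holds a rise known when the genes were proposed. The other 3 values rest on SNU-449 levels at or next to the floor and show no difference in effect by themselves. They were 0.86 for FGA with galunisertib (1 of 6 SNU-449 arrays well above background), 0.96 for F2 with TGFβ1 (3 of 6) and -0.65 for F10 with TGFβ1 (0 of 6). The F10 value restates its PLC/PRF/5 change, because its SNU-449 change is 0 at the floor. The FGA difference was lost in 18 of its 23 alternatives, and the F10 difference was 0.24 with the authors' normalized values. The F2 difference was 0.15 with normexp background correction, whose offset shrinks changes of dim probes.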

How the results depend on the processing

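The rise of THBD and the fall of F10 with galunisertib added to TGFβ1 in PLC/PRF/5, and the fall of F3 with galunisertib added to TGFβ1 in SNU-449 kept their calls under every alternative. Of 136 counts of passing genes under alternatives that kept all arrays, 104 stayed within 1.5 times.

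For TGFβ1 in PLC/PRF/5 the count of 3 became 0 when arrays were scaled on their median and 1 without scaling. Over all genes, calls fell from 2247 to 479 and 495 in these settings. For galunisertib in PLC/PRF/5 the count of 3 became 1 with median scaling, without scaling, with normexp, with the replicate block and with the t-test. THBD was the gene left each time. Over all genes, 905 passed in the main fit and 92, 36, 433, 654 and 171 in these settings. For galunisertib added to TGFβ1 in PLC/PRF/5, the count of 6 became 2 without scaling (THBD and F10). All genes passing fell from 6519 to 1011. For TGFβ1 added to galunisertib in PLC/PRF/5, the count of 1 became 0 with median scaling, without scaling and with quantile normalization. It was 0 too with the authors' values, without the filter and with the t-test, and 2 with normexp. All genes passing went from 1423 to 153, 117, 1598, 978, 720, 0 and 1858 in that order. In SNU-449, F2 was counted although it entered through its TGFβ1 arrays. The count of 2 for TGFβ1 became 1 with median scaling, which left F2 alone (F3 0.79, adjusted p = 0.0555). It became 1 as well with normexp, the doubled floor (an alternative chosen after seeing the data) and the filter on every array, which left F3. Over all genes 1688 passed, and 708, 2160, 1815 and 1564 in these settings. The count of 2 for galunisertib added to TGFβ1 became 1 (F3) with the last 3. All genes passing went from 2755 to 3259, 2831 and 2533. The count of 1 for galunisertib (F3) became 0 with median scaling and the t-test and 2 with the authors' values. All genes passing went from 1200 to 238, 87 and 1104. The count of 0 for TGFβ1 added to galunisertib became 1 with the percentile over probes well above background, the doubled floor and all 24 arrays in 1 fit. All genes passing there went from 305 to 305, 469 and 1111. For the differences between lines the counts of 3 became 1 with median scaling (both), and, for TGFβ1, 1 without scaling and with the filter on every array. For galunisertib THBD was left, and for TGFβ1 F2, F10 and F3 in that order. All genes passing fell from 1052 to 201 for galunisertib and from 1541 to 440, 437 and 827 for TGFβ1. The cause was not tested. F10's difference in the TGFβ1 effect reversed from -0.65 to 0.24 with the authors' values.

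Leaving out 1 array gave counts of 2 to 3 and 1 to 2 for TGFβ1 and galunisertib in PLC/PRF/5, 4 to 8 and 0 to 1 for the comparisons with both agents, and for the lines 2 to 3 (galunisertib) and 2 to 4 (TGFβ1). All genes passing ranged from 1214 to 1848, 295 to 785, 4855 to 6021, 302 to 1623, 775 to 1343 and 1188 to 1437 in that order. In SNU-449 each count of members, with F2 counted as above, stayed as it was. With the replicate block, pairing by number changed the call of THBD after TGFβ1 in PLC/PRF/5 alone among the paired comparisons. In the other comparisons samples share only a number, and the block dropped F3 (0.36) and PROC (-0.33) with galunisertib and added FGB (0.37) with galunisertib added to TGFβ1 in PLC/PRF/5. Median scaling moved the median change of all genes by -0.161 to 0.175, no scaling by -0.177 to 0.25, and the percentile over probes well above background by -0.17 to 0.0536. At the study's limits the t-test passed THBD with galunisertib and with galunisertib added to TGFβ1 in PLC/PRF/5, and no other of the 10 genes. Over all genes 34 and 323 passed in these comparisons. After adjustment the t-test passed 2, 1, 4 and 0 of the 10 genes in the 4 comparisons of PLC/PRF/5 and 2, 0, 2 and 0 in SNU-449. Over all genes it passed 1619, 171, 5460 and 0 in PLC/PRF/5 and 1486, 87, 2726 and 0 in SNU-449. With TGFβ1 added to galunisertib no gene on the array passed in either line, so those counts of 0 say nothing of the members. The SNU-449 counts of 2 hold F2, for which nothing is read, since it entered through its TGFβ1 arrays. Dim signal limits FGA, F2, F5, F7, F10 and PROC in SNU-449, where changes below the floor cannot be seen.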
